A study of Mus musculus with 6 samples.

Results

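The miR-379 to miR-410 cluster is a run of miRNA hairpins on one strand of mouse chromosome 12, chr12:109709060-109743795 (GRCm38, plus strand, 34.7 kb), at the distal end of the imprinted Dlk1-Dio3 domain. Its members were taken by name, as the mature arms of the precursors from Mir379 to Mir410. Of 45 arms named, 40 were in the table of 1522 miRNAs, from 31 precursors. miR-411-3p, miR-679-5p, miR-544-3p, miR-382-3p and miR-485-3p are not analysed here. A filter of at least 1 RPM (reads per 1000000 of a library total) in 3 or more libraries left 23 of the 40 for testing, beside 626 other miRNAs.

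The small RNA came from hippocampal neural stem cells (NSCs) of male C57BL/6J mouse pups at postnatal day 3. Dams of the GDE group, called IUGR in the library titles, were injected intraperitoneally each day from E14.5 to E18.5 of gestation with 1 mg/kg of dexamethasone, which activates the glucocorticoid receptor. Dams of the Control group, called Normal in the titles, received saline at the same times. There were 3 libraries a group, from separate litters per the design text, and the labels name no genetic change in either group.

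A miRNA is cut from a hairpin, whose arms are named 5p and 3p, and pairs with target mRNAs mainly through its seed, bases 2 to 8. In this locus the miRNAs are made from the maternal chromosome only, from long transcripts that run through Meg3, Rian and Mirg. The cluster is a placental mammal innovation, is most active in embryo and brain, and is known in neurons for transcription by Mef2 in response to activity. Mice that lack it show altered anxiety-related behaviour and a poor metabolic adaptation at birth. miR-369-3p, miR-496a-3p and miR-543-3p are known to repress N-cadherin in the developing cortex, where the cluster acts on neurogenesis and neuronal migration.

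Of the 40 listed members, 36 matched a mature sequence in RefSeq (GRCm38.p6), and these 36 carried 36 different seeds. miR-376c-3p, miR-487b-3p, miR-539-3p and miR-485-5p are named only. The sequences below are those of the 5′-most and most abundant pair, of near-identical pairs, of the member with the highest log2 fold, of miR-369 with both arms, and of members whose groups separated, in lower case with the seed in capitals. The prefix mmu, for mouse, is left off elsewhere.
mmu-miR-379-5p: uGGUAGACuauggaacguagg
mmu-miR-411-5p: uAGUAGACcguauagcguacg
mmu-miR-323-3p: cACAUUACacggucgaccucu
mmu-miR-543-3p: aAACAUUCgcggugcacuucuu
mmu-miR-495-3p: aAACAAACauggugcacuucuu
mmu-miR-376b-3p: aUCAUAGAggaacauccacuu
mmu-miR-376a-3p: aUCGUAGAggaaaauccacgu
mmu-miR-300-3p: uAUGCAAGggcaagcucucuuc
mmu-miR-381-3p: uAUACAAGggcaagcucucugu
mmu-miR-154-5p: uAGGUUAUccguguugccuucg
mmu-miR-369-5p: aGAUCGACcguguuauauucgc
mmu-miR-369-3p: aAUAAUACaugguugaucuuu
mmu-miR-410-3p: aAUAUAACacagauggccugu

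Several of these differ at few bases, and how reads that fit more than 1 of them were assigned is not known here. Counted from 1 at the 5′ end, with miR-376b-3p first, miR-376b-3p and miR-376a-3p differ at 3 of 21 bases (A4G, C13A and U20G), 1 of them in the seed. With miR-300-3p first, miR-300-3p and miR-381-3p differ at 3 of 22 (G4A, U21G and C22U). With miR-543-3p first, miR-543-3p and miR-495-3p differ at 4 of 22 (U6A, U7A, G9A and C10U), 2 of them in the seed. miR-369-3p is as close to miR-154-3p, whose sequence is not printed. With miR-154-3p first they differ at 4 of 21 (C4A, C10U, C17U and A20U), 1 of them in the seed. No member's 6 values were identical to those of another row of the table. The string GGUNNAC, searched on the sense strand only, was in 13 of the 36 sequences, or 36.1%, against 2.08% of the 1679 mature mouse sequences in RefSeq. Those 1679 include the members, which make up 13 of the 35 that hold it. Of the sequences above, miR-379-5p, miR-323-3p, miR-543-3p and miR-495-3p hold it. Also searched were GGUUG (11.1% against 3.1%) and ACACGG (8.33% against 0.417%). The hairpins resemble each other, so these shares are a description only. Among the 36 with a sequence, 3 members shared a seed with a miRNA of the table outside the cluster. They were miR-329-3p with miR-362-3p, miR-1193-3p with miR-370-5p, and miR-410-3p with miR-344d-3p. miRNAs absent from the table were not searched outside the cluster. Inside it, miR-379-3p shares its seed with miR-411-3p, which is not in the table.

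The cluster was a minor part of these libraries. Its 40 members summed to 328.0, 275.7 and 263.8 RPM in GDE replicates 1, 2 and 3 and to 237.9, 264.0 and 317.8 RPM in Control replicates 1, 2 and 3. These sums overlapped, with means of 289.2 ± 34.2 RPM for GDE and 273.2 ± 40.8 RPM for Control (± SD, n = 3 each). They rested on 2863 to 3929 tags a library (tags are reads recovered as whole numbers from the RPM) and made up 0.0856% to 0.127% of the RPM in the table. As in any bulk sample, fewer cells of a type and less RNA per cell cannot be told apart here. The 6 most abundant members, miR-379-5p, miR-411-5p, miR-376a-3p, miR-369-5p, miR-410-3p and miR-487b-3p, held 61.8% of the cluster's RPM. The most abundant, miR-379-5p, ranked only 208 among the 649 tested miRNAs.

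The library totals that the RPM imply were 11751000 to 12385000 tags, read from the values. They are larger than the 2927136 to 3343808 tags in the table, and what else they count is not given in the sources. Marker miRNAs chosen for the labelled cell type were all present, with 6 of 6 neural progenitor miRNAs (miR-9 among them) at summed levels of 19290 to 20380 RPM in GDE, against 18970 to 21650 RPM in Control. Neuronal markers were also present, 10 of 10 and none at 0, at 2903 to 3472 RPM in GDE, against 3066 to 3468 RPM in Control. Of other lists, 7 of 7 microglia and leukocyte markers summed to 2387 to 2861 against 1699 to 2408 RPM and 5 of 5 endothelial and mural markers to 381.0 to 604.3 against 352.3 to 432.6 RPM. For 3 of 3 choroid plexus markers the ranges were 536.0 to 1147 against 253.2 to 670.1 RPM, for 3 of 3 oligodendrocyte lineage markers 209.5 to 264.5 against 159.7 to 235.0 RPM, and for 3 of 3 erythroid markers, where the groups did not overlap, 73.8 to 93.5 against 35.0 to 69.0 RPM. No marker in any list was at 0 in all libraries, and none passed the limma test given below. The median difference of their log2(RPM + 1), GDE less Control, was also taken. It was 1.23 for microglia and leukocyte markers (6 of 7 positive) and 1.10 for choroid plexus markers (3 of 3). For endothelial and mural it was 0.39 (5 of 5), oligodendrocyte lineage 0.37 (3 of 3) and erythroid 0.52 (2 of 2 tested). Neural progenitor markers had -0.04 (0 of 6) and neuronal ones 0.04 (6 of 10), against -0.07 (38.8% positive) for all tested miRNAs. The part of these cell types in the results below was not tested.

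No member passed the test between GDE and Control. Over all 649 tested miRNAs, limma on log2(RPM + 1) called 2, or 0.308%, at a Benjamini-Hochberg adjusted p under 0.05, and 0 of them among the 23 tested members, whose lowest adjusted p was 0.51 in limma. By unadjusted p under 0.05 in limma there were 6 members, all higher in GDE, where 4.01% of all tested miRNAs were higher and 8.63% were either way. Among these members, miR-376b-3p passed the filter only through the GDE group, where it was higher. The 6 became 3 without GDE replicate 1, where 10.2% of all tested miRNAs had such a p, 3 without Control replicate 2 (5.35%) and 4 without Control replicate 1 (6.23%). edgeR called 0 members against a background of 0.308%, with 6 at an unadjusted p under 0.05, where 8.63% of all tested miRNAs were. DESeq2 on the same tags called 1, miR-376a-3p, against a background of 0.77% of all tested miRNAs, and 2, miR-376a-3p and miR-410-3p, against 1.08% with its own size factors. Each log2 fold below is the GDE mean less the Control mean of log2(RPM + 1), with its standard error (SE). This scale understates the change of low miRNAs.

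**Figure D1:**
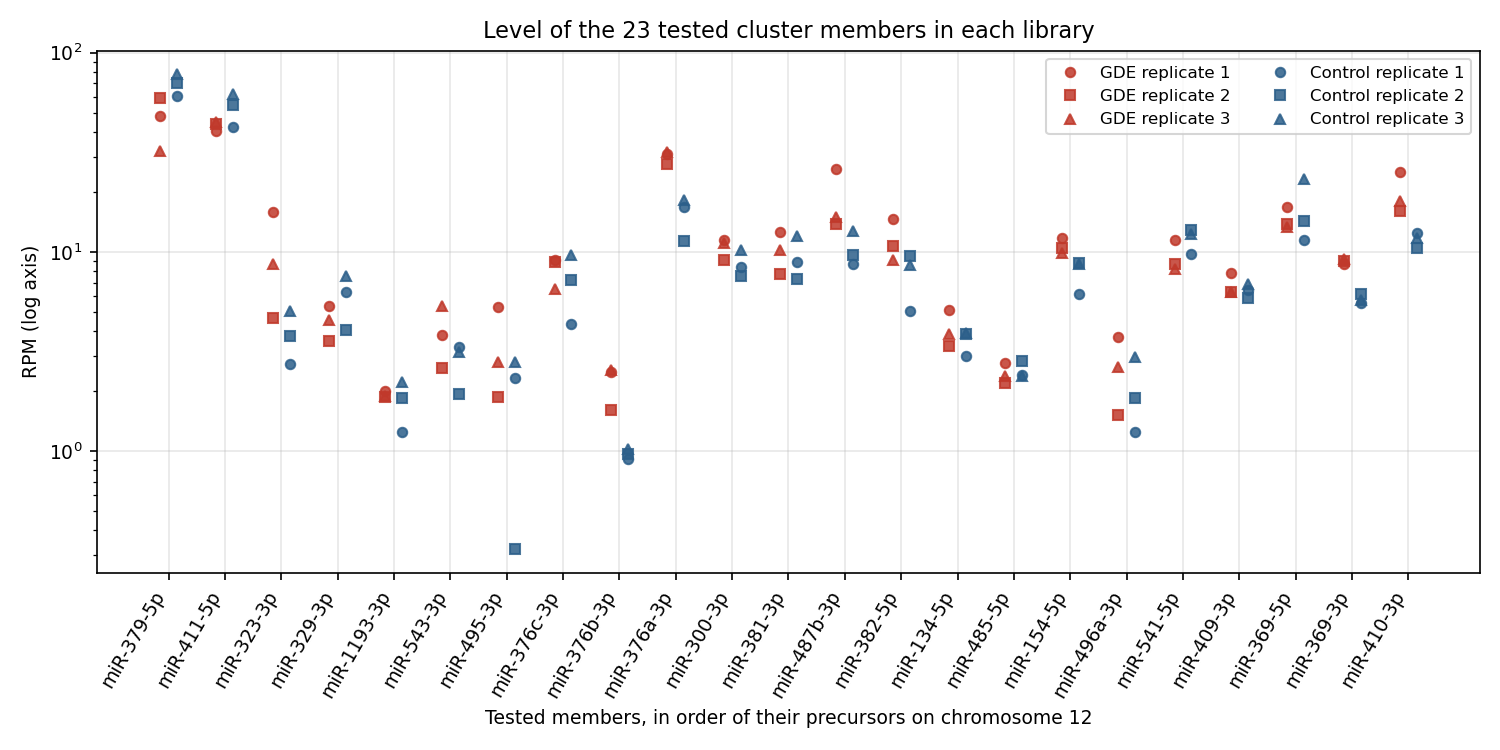
RPM of each tested member (log axis) in the 3 GDE libraries (red) and 3 Control libraries (blue), with members ordered by precursor position. Levels run from 77.6 RPM for miR-379-5p in Control replicate 3 down to 0.323 RPM for miR-495-3p in Control replicate 2, and for most members the red and blue points overlap.

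By direction, 17 of the 23 tested members had a positive log2 fold, or 73.9%, with a median of 0.24, while 38.8% of all tested miRNAs were positive, with a median of -0.07. Scaling by DESeq2 size factors brought the latter to 51.8% and that of the members to 78.3%. Split by arm, 14 of 15 tested 3p arms were positive, with a median of 0.36, and 3 of 8 tested 5p arms, with a median of -0.07. Among all tested miRNAs 41.9% of 3p and 35.4% of 5p arms were positive. With no filter, 23 of the 40 listed members were positive, or 57.5%, beside 41.7% of all 1522 miRNAs, with 18 of 24 3p arms and 5 of 16 5p arms. Members come from shared transcripts and the same 6 libraries, so these counts are a description and carry no test. Without Control replicate 1 the members' median was 0.08 and 12 of 15 3p arms were positive. There 65.2% of members were positive, against 47.1% of all tested miRNAs, whose median was -0.02. Without GDE replicate 1 the members' median was 0.16 with 12 of 15, and 65.2% were positive against 36.7%. Without Control replicate 3 it was 0.43 with 14 of 15, and 78.3% were positive against 36.9%.

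Single libraries stood out in the cluster as a whole. GDE replicate 1 held the highest value of all 6 libraries for 11 of the 23 tested members, and Control replicate 1 held the lowest for 11. Measured as the median departure of the tested members from their own mean over the libraries, on the log2 scale, GDE replicates 1, 2 and 3 lay at 0.27, -0.07 and 0.09 and Control replicates 1, 2 and 3 at -0.27, -0.17 and 0.06. Over all tested miRNAs Control replicate 1 lay the other way, at 0.18, and GDE replicate 3 at -0.10, with the other 4 libraries between -0.02 and 0.02.

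**Figure D2:**
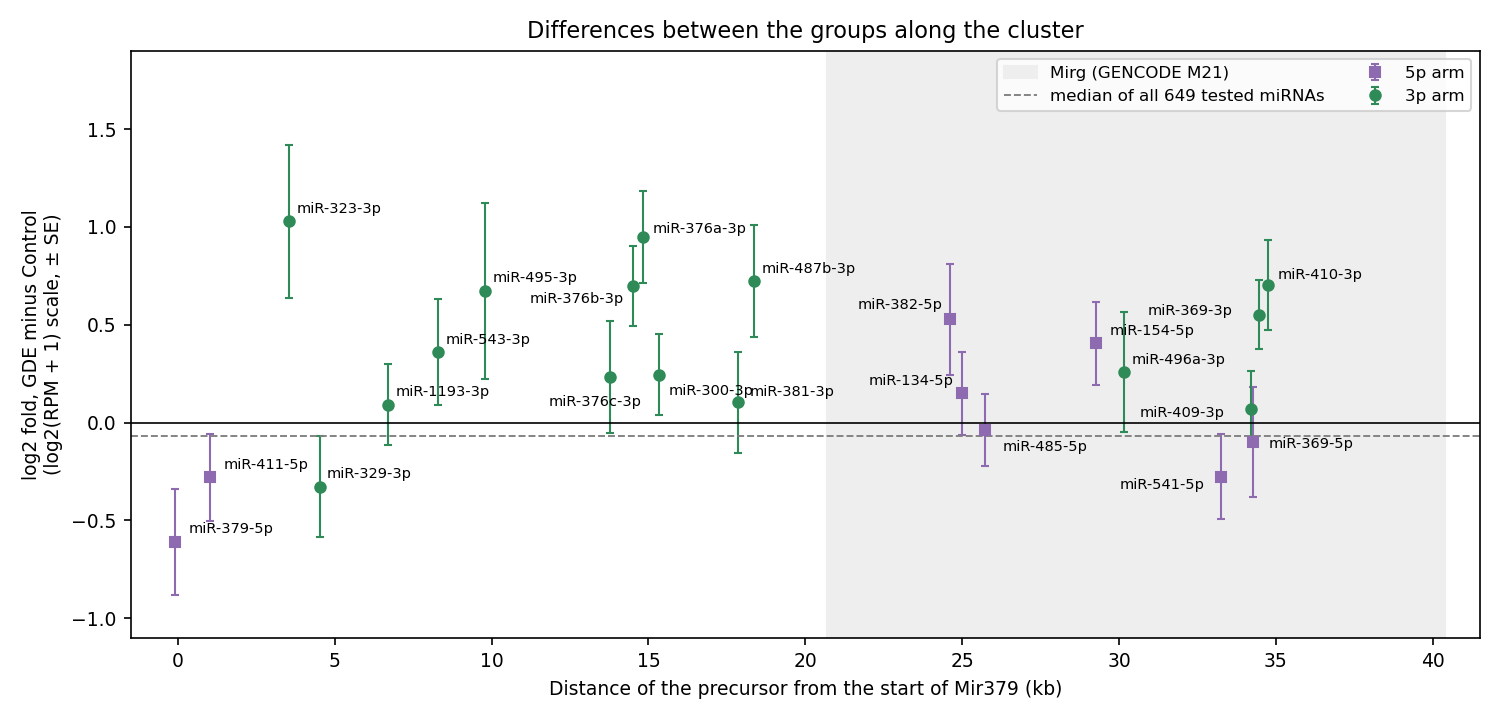
Log2 fold of each tested member, GDE minus Control (± SE from limma), against the distance of its precursor from the start of Mir379. The 14 positive 3p arms (circles) lie along the whole cluster, and the lowest point is miR-379-5p at the 5′ end, at -0.61.

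At the 5′ end, the first 2 tested members had lower means in GDE, and the groups separated for the first of them. miR-379-5p, reported in mouse liver as a target of the glucocorticoid receptor, was at 48.0, 58.9 and 32.0 RPM in GDE replicates 1, 2 and 3 and at 60.3, 70.3 and 77.6 RPM in Control replicates 1, 2 and 3. Every GDE library was below every Control library, by a narrow gap between GDE replicate 2 and Control replicate 1. It was the only tested member separated in this direction, against 10% of all tested miRNAs, and its log2 fold was -0.61 (SE 0.27, with adjusted p = 0.561 in limma). Without GDE replicate 3 the log2 fold was -0.37. miR-411-5p, from the next hairpin 1.11 kb on, was at 40.2, 43.8 and 44.6 RPM against 42.2, 54.3 and 61.9 RPM. Its groups overlapped through Control replicate 1, with a log2 fold of -0.28 (SE 0.22, with adjusted p = 0.719 in limma), -0.43 without that library and -0.16 without Control replicate 3.

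The other arms of these first hairpins were scarce. miR-379-3p was at 0.330 to 0.677 RPM in GDE, against 0.681 to 0.807 RPM in Control, and 98.9% of the RPM of this hairpin, averaged over the 6 libraries, came from the 5p arm. Both arms of miR-299a and of miR-380 stayed at or below 1.02 RPM in every library.

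Farther on, miR-323-3p had the highest log2 fold of the 23 tested members and a wide spread. It was at 15.8, 4.66 and 8.66 RPM in GDE and at 2.74, 3.80 and 5.02 RPM in Control. GDE replicate 1 was far above the rest and GDE replicate 2 lay inside the Control range, so the groups overlapped. The log2 fold was 1.03 (SE 0.39, with adjusted p = 0.561 in limma), and 0.63 without GDE replicate 1. miR-329-3p, one of the cluster's miRNAs with a role in activity-dependent dendrite growth, was the only tested 3p arm with a negative log2 fold. Its values were 5.34, 3.56 and 4.54 RPM in GDE, against 6.32, 4.04 and 7.57 RPM in Control, with overlapping groups (log2 fold -0.33 with SE 0.26, and adjusted p = 0.718 in limma). The log2 fold was -0.55 without Control replicate 2, -0.20 without GDE replicate 2 and -0.16 without Control replicate 3. miR-1193-3p lay between 1.25 and 2.21 RPM in all libraries, with a log2 fold of 0.09 (SE 0.21).

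miR-543-3p and miR-495-3p, the near-identical pair, both overlapped between the groups. miR-543-3p was at 3.84, 2.62 and 5.36 RPM in GDE, against 3.32, 1.94 and 3.15 RPM in Control (log2 fold 0.36 with SE 0.27, and adjusted p = 0.702 in limma). miR-495-3p was at 5.26, 1.86 and 2.80 RPM in GDE, against 2.33, 0.323 and 2.81 RPM in Control, the lowest of these resting on 4 tags (log2 fold 0.67 with SE 0.45, and adjusted p = 0.643 in limma). Control replicate 2 was the lowest library for both, and without it the log2 fold of miR-495-3p was 0.20 and that of miR-543-3p 0.19. Without GDE replicate 1 miR-495-3p was at 0.37, and miR-543-3p was at 0.16 without GDE replicate 3 and 0.57 without GDE replicate 2.

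The miR-376 family lies in the middle of the cluster, between 13.66 and 14.72 kb from the start of Mir379, and its primary transcripts are known substrates of A-to-I editing in brain. The table has 1 value per mature miRNA, so edited and unedited forms cannot be told apart. miR-376a-3p, from Mir376a at chr12:109723781-109723848, had the lowest p of the cluster. It was at 31.1, 27.5 and 31.7 RPM in GDE and at 16.7, 11.4 and 18.1 RPM in Control. All GDE libraries lay above all Control libraries with a wide gap, and the ratio of the means was 1.96. Its log2 fold was 0.95 (SE 0.24, with adjusted p = 0.51 in limma), with DESeq2 adjusted p = 0.029, or 0.0023 with its own size factors, and 0.0023 to 0.818 over all alternatives. Leaving out any 1 library kept its log2 fold between 0.76 and 1.07.

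miR-376b-3p, from Mir376b at chr12:109723458-109723539, separated in the same direction at a far lower level. It was at 2.50, 1.61 and 2.56 RPM in GDE and at 0.914, 0.969 and 1.02 RPM in Control, from 30, 19 and 31 tags against 11, 12 and 12. The ratio of the means was 2.30 and the log2 fold 0.70 (SE 0.20, with adjusted p = 0.551 in limma). Only 1 Control library reached the filter's 1 RPM, so this member passed the filter through the group in which it was higher, the 1 tested member of which this holds. The third member, miR-376c-3p, overlapped, at 9.10, 8.89 and 6.51 RPM in GDE, against 4.32, 7.19 and 9.62 RPM in Control (log2 fold 0.23 with SE 0.29, and adjusted p = 0.85 in limma). Its sign turned without Control replicate 1, where the log2 fold was -0.04. The 3p arms of the family together came to 42.7, 38.0 and 40.8 RPM in GDE and to 21.9, 19.5 and 28.8 RPM in Control, most of it miR-376a-3p.

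Next to the family, miR-300-3p and miR-381-3p, which differ by 1 seed base, had close levels in the groups. miR-300-3p was at 9.06 to 11.4 RPM in GDE, against 7.59 to 10.2 RPM in Control (log2 fold 0.24 with SE 0.21, and adjusted p = 0.723 in limma, or 0.16 without Control replicate 2). For miR-381-3p the ranges were 7.70 to 12.5 and 7.27 to 11.999 RPM (log2 fold 0.10 with SE 0.26, and adjusted p = 0.952 in limma), and its sign turned without GDE replicate 1 and without Control replicate 2. miR-487b-3p, from Mir487b at chr12:109727333-109727414, separated. It was at 26.0, 13.8 and 15.01 RPM in GDE, against 8.73, 9.61 and 12.8 RPM in Control, with GDE replicate 1 far above the others and a narrow gap between GDE replicate 2 and Control replicate 3. Its log2 fold was 0.72 (SE 0.29, with adjusted p = 0.561 in limma), and 0.45 without GDE replicate 1.

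The 3′ portion of the cluster lies within Mirg, a long noncoding RNA gene, by GENCODE M21 (chr12:109729764-109749460). It holds 15 of the listed members from 12 precursors, from Mir382 on, 9 of the members on precursors that overlap a Mirg exon and the others in introns. RefSeq starts Mirg later, at chr12:109734981-109749458, which leaves 8 of these precursors inside it. Upstream of Mirg the 25 other listed members, from 19 precursors, lie in no annotated gene of GENCODE M21 other than the miRNAs. Inside Mirg 7 of 10 tested members had a positive log2 fold, with a median of 0.20, and upstream of it 10 of 13, with a median of 0.24. The difference between these portions was not tested. Members inside Mirg held 34.1%, 30.8% and 32.2% of the cluster's RPM in GDE, against 28.2%, 30.1% and 28.2% in Control. All 3 GDE values were higher than all 3 Control values, by less than 1 percentage point at the closest.

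The first members inside Mirg include miRNAs of the synapse. miR-134-5p, known to limit dendritic spine size through Limk1, was at 5.09, 3.39 and 3.88 RPM in GDE, against 2.99, 3.88 and 3.91 RPM in Control (log2 fold 0.15 with SE 0.21, and adjusted p = 0.887 in limma). That log2 fold was 0.02 without GDE replicate 1 and 0.05 without Control replicate 1, and 0.25 without GDE replicate 2. miR-485-5p, which represses the synaptic vesicle protein SV2A, was at 2.20 to 2.76 RPM in GDE, against 2.38 to 2.83 RPM in Control, and its log2 fold of -0.04 (SE 0.18, with adjusted p = 0.989 in limma) turned positive under each rescaling of the libraries. Neither had a difference beyond the spread of its libraries. miR-382-5p was at 14.6, 10.7 and 9.07 RPM in GDE, against 5.07, 9.53 and 8.60 RPM in Control, overlapping by 1 library on each side (log2 fold 0.53 with SE 0.28, and adjusted p = 0.57 in limma), and its log2 fold was 0.28 without Control replicate 1 and 0.35 without GDE replicate 1.

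Farther into Mirg, miR-154-5p separated. It was at 11.8, 10.4 and 9.81 RPM in GDE, against 6.15, 8.80 and 8.68 RPM in Control, with a log2 fold of 0.41 (SE 0.21, with adjusted p = 0.57 in limma), and of 0.26 without Control replicate 1. The other 5p arm of this stretch, miR-541-5p, was lower in 2 of 3 GDE libraries than in any Control library, at 11.5, 8.72 and 8.16 RPM against 9.72, 12.8 and 12.3 RPM (log2 fold -0.28 with SE 0.22, and adjusted p = 0.719 in limma). miR-496a-3p, one of the N-cadherin regulators, was at 1.52 to 3.76 RPM in GDE, against 1.25 to 2.98 RPM in Control (log2 fold 0.26 with SE 0.31, and adjusted p = 0.828 in limma). Its log2 fold was 0.04 without GDE replicate 1, 0.06 without Control replicate 1, 0.50 without GDE replicate 2 and 0.48 without Control replicate 3. miR-409-3p was at 6.26 to 7.85 RPM in GDE, against 5.89 to 6.89 RPM in Control (log2 fold 0.07 with SE 0.19, and adjusted p = 0.963 in limma). The groups overlapped for both.

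At the 3′ end, 2 hairpins 0.3 kb apart gave separated 3p arms. miR-369-3p, named above for N-cadherin, from Mir369 at chr12:109743418-109743496, was at 8.68, 8.97 and 9.24 RPM in GDE and at 5.57, 6.14 and 5.70 RPM in Control. The libraries of each group lay close together with a clear gap between the groups, and the log2 fold of 0.55 (SE 0.18, with adjusted p = 0.551 in limma) stayed between 0.53 and 0.59 when any 1 library was left out. miR-410-3p, from Mir410 at chr12:109743715-109743795, was at 25.2, 16.0 and 17.9 RPM in GDE and at 12.4, 10.5 and 11.7 RPM in Control. Its log2 fold was 0.70 (SE 0.23, with adjusted p = 0.551 in limma). DESeq2 with its own size factors gave adjusted p = 0.0482, and the range over all alternatives was 0.0482 to 0.818. With any 1 library left out the log2 fold ran from 0.52, without GDE replicate 1, to 0.83, without GDE replicate 2.

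**Figure D3:**
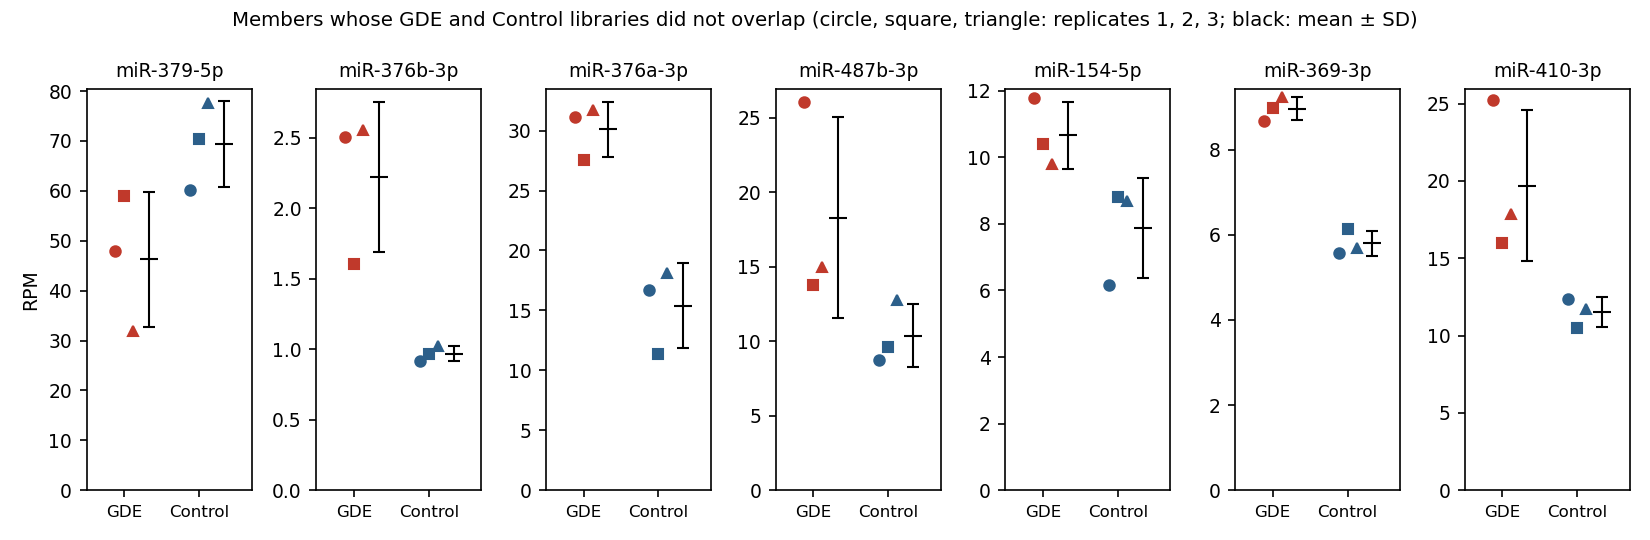
RPM of the 7 members whose GDE libraries (red) and Control libraries (blue) did not overlap, by replicate (circle 1, square 2, triangle 3), with mean ± SD in black and each axis starting at 0. miR-379-5p is lower in GDE and the other 6 are higher, with a wide gap for miR-376a-3p (27.5 against 18.1 RPM at the closest) and a narrow one for miR-487b-3p (13.8 against 12.8 RPM).

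In all, 6 of 23 tested members separated toward higher values in GDE, where 4.62% of all tested miRNAs did, and 1 of 23 toward lower values, where 10% did. The 6 were miR-376b-3p, miR-376a-3p, miR-487b-3p, miR-154-5p, miR-369-3p and miR-410-3p. Of these, miR-376b-3p passed the filter only through the group in which it was higher, so its place in this count is not independent of the filter. For each of the 7 the exact two-sided permutation p was 0.1, the smallest that 3 against 3 libraries allow, so no single member could pass 0.05 by that test. Over all 649 tested miRNAs, separation in either direction was seen for 14.6%.

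Both arms of a hairpin are cut from 1 transcript, and the ratio of their RPM within a library does not depend on how libraries are scaled. The test instead took log2(RPM + 1) of each arm. That ratio does shift with scaling and understates the difference of low arms. Of 155 precursors with both arms past the filter, 0 had a changed 5p over 3p ratio in limma at an adjusted p under 0.05 (0%), with 9 at an unadjusted p under 0.05 (5.81%). Of the cluster, 2 precursors were among the 155, those of miR-369 and miR-543. miR-369-5p was at 16.8, 13.8 and 13.3 RPM in GDE, against 11.5, 14.2 and 23.2 RPM in Control, with a log2 fold of -0.10 (SE 0.28, with adjusted p = 0.963 in limma). Set over its 3p arm this gave ratios of RPM of 1.93, 1.54 and 1.44 in GDE and 2.06, 2.32 and 4.07 in Control. The ratio was lower in every GDE library. On log2(RPM + 1) of each arm, its log2 difference was -0.65 (SE 0.30, with adjusted p = 0.674 in limma), and -0.37 without Control replicate 3.

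For miR-543 the 5p arm, outside the list of members, was at 1.25, 0.592 and 0.495 RPM in GDE and at 1.08, 2.10 and 1.62 RPM in Control. The 5p over 3p ratio of RPM was 0.326, 0.226 and 0.0924 in GDE and 0.325, 1.08 and 0.513 in Control. These overlapped through GDE replicate 1 and Control replicate 1, with a log2 difference of -0.91 (SE 0.38; limma, unadjusted p = 0.0467, adjusted p = 0.674). Without GDE replicate 3 it was -0.60, and without Control replicate 2 also -0.60. Of the 21 cluster precursors with both arms in the table, the 3p arm was the major one in 13 and the 5p arm in 8. They ran from 99.8% 3p for miR-376a to 98.9% 5p for miR-379. miR-380, counted as 5p, was an even split.

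The share of the cluster's RPM held by 3p arms separated between the groups, while the cluster's sum did not. The 3p arms held 53.0%, 43.8% and 52.9% of the cluster's RPM in GDE, against 39.6%, 32.1% and 36.5% in Control. Every GDE library was above every Control library, at 49.9 ± 5.28% against 36.1 ± 3.77% (mean ± SD, n = 3 each). miR-379-5p and miR-411-5p together held 26.9%, 37.2% and 29.0% in GDE and 43.1%, 47.2% and 43.9% in Control. With those 2 left out, the 3p share was 72.5%, 69.8% and 74.5% against 69.6%, 60.8% and 65.1%, so the groups still did not overlap but nearly touched. The ratio of miR-376a-3p to miR-379-5p, the separated members at opposite ends of the range, was 0.649, 0.467 and 0.992 in GDE and 0.277, 0.162 and 0.234 in Control. Since these members had separated in opposite directions, their ratio had to separate as well and adds no result of its own. The 3p share draws on the same separated members. miR-379-5p is in its 5p part, and most members separated toward higher values are in its 3p part. It is therefore not a result apart from theirs. These shares and ratios do not depend on library scaling, were looked at with the members' values known, and are given without a test.

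**Figure D4:**
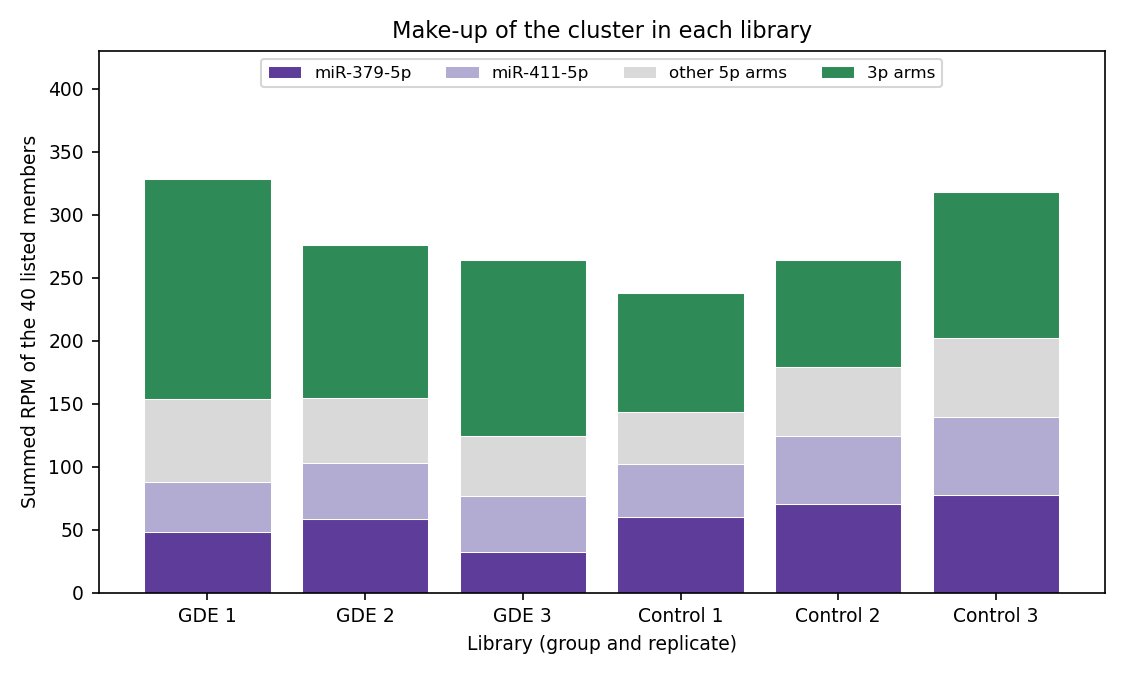
Summed RPM of the 40 listed members in each library, stacked by miR-379-5p, miR-411-5p, the other 5p arms and the 3p arms. Bar heights overlap between the groups (263.8 to 328.0 RPM in GDE, 237.9 to 317.8 RPM in Control), while the 3p portion is 120.8 to 173.9 RPM in GDE, against 84.6 to 116.1 RPM in Control.

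The 17 listed members that were not tested had mean levels of at most 0.887 RPM and 6 to 64 tags over the 6 libraries. Their highest single value was 1.33 RPM, for miR-377-3p in Control replicate 1. They were not put through the test with this filter. Among them miR-379-3p separated in RPM only, by 0.677 against 0.681 RPM at the closest. GDE replicate 2 and Control replicate 3 each held 8 tags there, so in tags its groups touched. At 0 in at least 1 library were 6 of the 17, where a count of 0 allows up to 3 tags, or about 0.25 RPM. These floors cover counting error only. The 6 were miR-494-3p, miR-666-5p, miR-376b-5p, miR-539-5p, miR-539-3p and miR-409-5p. Besides the members, 16 more arms of cluster precursors were in the table, of which miR-543-5p alone passed the filter and the rest had mean levels of at most 0.780 RPM. Of the rest, miR-410-5p was at 0.083, 0 and 0 RPM in GDE, against 0.332, 0.161 and 0.596 RPM in Control. miR-495-5p was at 0.167, 0.508 and 0.165 RPM, against 0.582, 0.565 and 0.596 RPM. Both were lower in every GDE library, as was miR-541-3p, by 0.165 against 0.166 RPM at the closest. The others overlapped. All of these rest on few tags.

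The miRNAs of the same domain upstream of Mir379, around Meg3, Rtl1 and Rian, were compared as a list of 30 names, of which 24 were in the table and 9 were tested. None of the 9 passed in limma. Of their log2 folds 4 were above 0 and 5 below, and the median was -0.01. Their summed level was 113.5 to 137.1 RPM in GDE, against 127.5 to 159.6 RPM in Control. The difference between this list and the cluster was not tested.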

How the data were processed

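Per the labels' protocols, an MGIEasy kit for small RNA was used. The authors deposited 1 table with 6 columns called expression, 3 GDE and 3 Control libraries. Its unit was read as RPM from the values: the low values deposited were whole multiples of 1 step per library, and 100% of nonzero values were whole tags within 0.1 tags. Per the submitters' processing notes Bowtie2 and mm10 were used; the sources used here do not give other steps, such as the handling of reads that match several miRNAs. The table's RPM sum to 241370 to 277888 per library, since the total behind the RPM is larger than the table's tags; its definition is not stated. limma 3.58.1 (R 4.3.3, trend, two-sided) was fitted to log2(RPM + 1) of all 649 miRNAs at 1 RPM or more in 3 or more libraries, with Benjamini-Hochberg adjustment over all of them. Arm ratios were tested likewise. edgeR 4.0.16 (calling 2 miRNAs) and DESeq2 1.42.0 (calling 5) were run on the tags. Alternatives covered pseudocounts 0.1 and 10, filters, scaling, a replicate block and each library left out. The limma, edgeR, DESeq2 and arm-ratio fits were tested on simulated data.

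Positions are from GENCODE M21 (GRCm38) and sequences from RefSeq (GRCm38.p6). Each tested member is named with its values, and values in every library are given for the 6 most abundant, for those separated between groups or past the threshold under any alternative, for the miR-376 family and for precursors with both arms tested, along with others by position. The members and lists were chosen with earlier results of these data known. P-values measure the spread between these 3 litters a group.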

Additional observations from a re-analysis of the deposited data

How the results depend on the processing

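Across 18 alternatives, 0 cluster members passed except with DESeq2 (1, or 2 with its own size factors; the latter and edgeR with TMM were added after seeing the data). Over all miRNAs the count of 2 became 5 and 7 with these DESeq2 fits and 1 with at least 10 RPM in 3 libraries, and was 1 to 2 without single libraries. The members' median log2 fold of 0.24 was 0.072 with no filter (40 members), 0.101 with pseudocount 10, 0.104 with at least 10 RPM and 0.082 to 0.434 without single libraries. With at least 10 RPM only 9 members were tested, 5 positive and 4 separated, with 48 of 334 (14.4%) separated over all miRNAs. With no filter 175 of 1522 miRNAs (11.5%) and 8 of 40 members separated, the latter with miR-379-3p, whose groups touched at 8 tags. In that setting 1 arm ratio passed, of miR-297c, outside the cluster. Without single libraries 139 to 194 miRNAs (22.0% to 30.6%) and 8 to 10 of 23 members separated, where fewer libraries separate more easily. The summed RPM gave a log2 ratio of 0.08, from -0.019 to 0.205 without single libraries. Scaling moved the median of all miRNAs in edgeR from -0.11 to -0.00 with TMM. The sign turned for miR-485-5p when scaled to the table's sum (0.003), by TMM (0.023) or DESeq2 size factors (0.03), with edgeR and TMM (0.045) and DESeq2 with its own size factors (0.038). Without single libraries the ranges that crossed 0 were -0.101 to 0.019 for miR-485-5p, -0.053 to 0.205 for miR-1193-3p, -0.037 to 0.461 for miR-376c-3p, -0.048 to 0.279 for miR-381-3p, -0.023 to 0.119 for miR-409-3p and -0.305 to 0.175 for miR-369-5p. The cause of these shifts was not tested. Same-numbered libraries did not deviate together (r = -0.03, -0.12 and -0.03, against -0.074 to 0.146 for differently numbered ones). This showed no pairing by number but, with 3 libraries a group, cannot exclude it. With a replicate block 0 members and 2 miRNAs passed, and the members' median was again 0.24. Members under about 1 RPM are limited by tag counts.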
